A study of Mus musculus with 6 samples.

Results

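Branched-chain amino acid catabolism was followed in epididymal white adipose tissue (eWAT) through 10 genes, selected by symbol from the count table: Bcat2, Bckdha, Bckdhb, Bckdk, Dbt, Ivd, Mccc1, Mccc2, Hibch and Acadsb. All 10 were found among the 54532 genes listed, and all 10 were among the 16003 genes that passed the filter on low counts. RNA-seq was made from the eWAT of 3 cachectic and 3 control mice, and the question was how the wasting fat differed from the fat of control mice. The animals were male C57BL/6 mice aged 6 to 10 weeks, with no engineered allele named in the labels. The cachexia group had received LLC cells, a Lewis lung carcinoma line, under the skin, and its tissue was taken on day 21. Cachexia was defined in the study as a loss of over 20% of body weight. The labels say of the other group only that it was control, so growth of a tumor and the weight loss that went with it cannot be told apart in this comparison. Each sample was labelled as eWAT, and no pooling of animals was stated.

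Leucine, isoleucine and valine are the branched-chain amino acids. Their breakdown starts with a transaminase that moves the amino group to make glutamate, and continues with the branched-chain ketoacid dehydrogenase (BCKDH) complex of the mitochondrion, whose step is irreversible and is switched off by a kinase and on by a phosphatase. The 3 carbon skeletons then take separate routes to acetyl-CoA, acetoacetate or propionyl-CoA, and in adipocytes these products can feed lipid synthesis.

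Of the 10 genes, Hibch was higher in cachectic mice and Mccc1 was lower at an adjusted p under 0.05, and the other 8 did not pass the test. Across all tested genes, 17.6% passed (9.0% higher and 8.63% lower). The 10 genes held 8 positive and 2 negative log2 fold changes of cachexia over control, with a median of 0.41, while the median of all tested genes was -0.0031 and 49.8% of them were positive. The values of the 3 cachectic mice lay wholly above those of the control mice for Hibch, Dbt and Acadsb, against 20.4% of all tested genes, and wholly below them for Mccc1, against 20.1% of all tested genes. Levels are given as CPM, counts scaled to library sizes that were adjusted by the TMM method, and adjusted p-values are from edgeR's quasi-likelihood test over all 16003 genes. In bulk tissue, fewer cells of a type and less RNA per cell cannot be told apart.

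**Figure D1:**
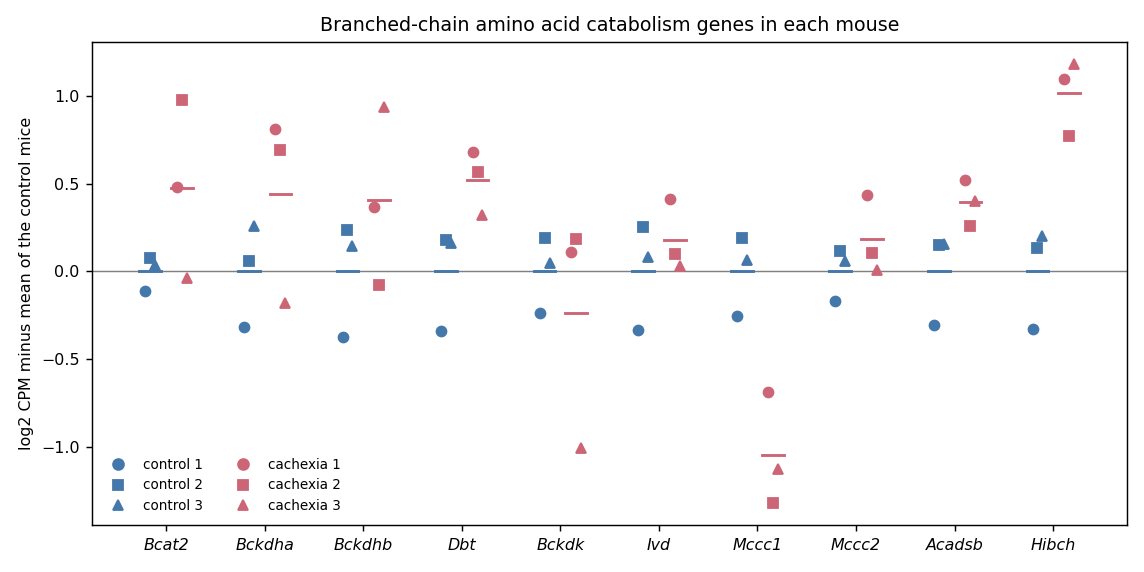
Log2 CPM of each of the 10 genes in each mouse, relative to the mean of the 3 control mice (horizontal line at 0). Short bars are group means, symbols are single mice. Hibch lies above every control mouse in all 3 cachectic mice and Mccc1 below, and control 1 is the lowest control mouse for all 10 genes.

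The sequences upstream of Hibch and Mccc1 are shown because these were the 2 genes that passed the test in opposite directions. They were taken from RefSeq (GRCm38.p6) and cover the bases before the transcription start that lie outside the gene as the count table places it. Capitals mark CCAAT and GGGCGG, the letters of the CCAAT box and the GC box, on either strand, so that ATTGG and CCGCCC are marked too. The Hibch sequence lies at chr1:52844788-52844928 on the plus strand, and the Mccc1 sequence at chr3:36000679-36000928 on the minus strand.
Hibch: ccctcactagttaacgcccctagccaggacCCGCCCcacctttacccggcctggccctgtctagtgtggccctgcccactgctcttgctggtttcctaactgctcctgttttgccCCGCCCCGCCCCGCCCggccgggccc
Mccc1: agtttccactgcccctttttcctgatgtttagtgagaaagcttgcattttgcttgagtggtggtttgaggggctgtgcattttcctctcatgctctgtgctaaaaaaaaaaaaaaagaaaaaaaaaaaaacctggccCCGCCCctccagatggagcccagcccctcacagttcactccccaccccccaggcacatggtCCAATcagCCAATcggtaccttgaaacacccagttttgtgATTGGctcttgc
Counts were made in the 250 bases before the RefSeq start. For Hibch this window is chr1:52844788-52845037, which runs past the bases shown into the gene as the count table places it. The Hibch window held 5 matches to the GC box, counted with overlaps, and no match to the CCAAT box. It had 18 CpG dinucleotides and 68.0% G or C. The Mccc1 window held 3 matches to the CCAAT box, 1 to the GC box, 2 CpG dinucleotides and 48.4% G or C. Of 32851 promoter windows of that length, 33.8% held a CCAAT box and 32.7% a GC box on either strand, and the median window had 6 CpG dinucleotides and 52.4% G or C. Hibch and Mccc1 thus stood on opposite sides of the median window in CpG number and base composition. Ivd, with 4, and Mccc2, with 3, also held several CCAAT matches, and neither gene passed the test. Acadsb, which did not pass either, had a window like that of Hibch, with 25 CpG dinucleotides and 3 GC box matches.

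Bcat2, the mitochondrial transaminase that opens the pathway, is at chr7:45570153-45589711 on the plus strand (GRCm38 coordinates of the count table). Its level was 217, 248 and 241 CPM in control 1, 2 and 3 and 328, 462 and 229 CPM in cachexia 1, 2 and 3. Cachexia 1 and 2 were above all control mice, while cachexia 3 lay among them. The means were 235 ± 16.1 and 340 ± 117 CPM (SD, n = 3), and the difference did not pass the test, at a log2 fold change of 0.53 (SE 0.25) and an adjusted p of 0.174. Without cachexia 3 the log2 fold change was 0.75 with an adjusted p of 0.0443. Without cachexia 2 it was 0.25 with an adjusted p of 0.422. Bcat2 passed in 1 of the 18 other settings tried. The exons of Bcat2 share 622 bases with the antisense gene 0610005C13Rik, which had at most 184 counts in any mouse against at least 3491 for Bcat2.

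The other transaminase, Bcat1, which is cytosolic, was at 33.3, 2.06 and 2.89 CPM in the control mice and at 1.11, 0.18 and 0.92 CPM in the cachectic mice. Control 1 stood far above the other 5 mice, and all 3 cachectic mice lay below all control mice. Its log2 fold change of -4.10 (SE 1.19) missed the threshold (adjusted p = 0.0507), and it was -1.74 when control 1 was left out. Bcat2 was the more abundant transaminase in every mouse. Its ratio to Bcat1 in FPKM, the deposited unit per exon length and library size, was lowest at 15.6 in control 1. Bcat1 had 3 to 19 counts in the cachectic mice, so its level there is imprecise.

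The subunits of the BCKDH complex come next. Bckdha, the alpha subunit of its decarboxylase, is at chr7:25629946-25658981 on the minus strand and was at 35.6, 46.3 and 53.4 CPM in the control mice and 78.6, 72.2 and 39.2 CPM in the cachectic mice. Cachexia 3 again fell within the control range and the other cachectic mice lay above it. The log2 fold change was 0.49 (SE 0.27, adjusted p = 0.240), and without cachexia 3 it was 0.75 with an adjusted p of 0.0407. Without cachexia 1 it was 0.30 with an adjusted p of 0.522. Bckdha passed in 1 of the 18 other settings. Of the exon bases of Bckdha, 1171 are shared with B3gnt8 on the opposite strand, out of 1899 in the deposited gene length. B3gnt8 had up to 254 counts in a mouse, against 598 to 1347 for Bckdha, and reads of these genes cannot be told apart without strand.

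Bckdhb, the beta subunit of the same decarboxylase, is at chr9:83925145-84124240 on the plus strand. It was at 61.3, 93.8 and 88.1 CPM in the control mice and 103, 75.4 and 153 CPM in the cachectic mice, with a log2 fold change of 0.45 (SE 0.27, adjusted p = 0.286). Here cachexia 3 was the highest mouse and cachexia 2 lay within the control range, the reverse of Bckdha. Since the alpha and beta subunits are parts of 1 enzyme, their ratio was taken in FPKM. Bckdha over Bckdhb was 0.55, 0.47 and 0.58 in the control mice and 0.73, 0.91 and 0.24 in the cachectic mice. The ratio was therefore steady among control mice (SD 0.0563) and scattered among cachectic mice (SD 0.344), on both sides of the control range.

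Dbt, the acyltransferase core of the complex, is at chr3:116513070-116549981 on the plus strand. Its level was 113, 162 and 160 CPM in the control mice and 229, 212 and 179 CPM in the cachectic mice. Every cachectic mouse was above every control mouse. The means were 145 ± 27.9 and 206 ± 25.4 CPM (SD, n = 3), the log2 fold change was 0.51 (SE 0.18, 95% interval 0.09 to 0.94), and the adjusted p of 0.0931 missed the threshold. Dld, the lipoamide dehydrogenase that this complex shares with the pyruvate and 2-oxoglutarate dehydrogenases, had a log2 fold change of -0.32 (SE 0.19, adjusted p = 0.266).

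The complex is controlled by phosphorylation. Bckdk, the kinase that inactivates it, is at chr7:127904082-127910221 on the plus strand and was at 73.5, 98.7 and 89.6 CPM in the control mice and 93.4, 98.6 and 42.8 CPM in the cachectic mice. Cachexia 1 and 2 were level with the control mice and cachexia 3 was lower than all of them. The log2 fold change of -0.16 (SE 0.30, 95% interval -0.84 to 0.53, adjusted p = 0.750) turned to 0.14 (adjusted p = 0.560) when cachexia 3 was left out. No direction can be given for this gene.

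Ppm1k, the phosphatase that reactivates the complex, belonged to the 25 other genes of the pathway and rose. It was at 14.4, 21.9 and 14.1 CPM in the control mice and at 39.8, 44.8 and 46.7 CPM in the cachectic mice. All 3 cachectic mice were above all control mice, and the spread within each group was small beside the gap. The log2 fold change was 1.38 (SE 0.20, 95% interval 0.93 to 1.84) with an adjusted p of 0.00504.

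Kinase and phosphatase were set against each other within each mouse. Bckdk over Ppm1k in FPKM was 8.28, 7.35 and 10.4 in the control mice and 3.82, 3.59 and 1.49 in the cachectic mice. The mean ratio went from 8.68 ± 1.56 to 2.97 ± 1.28 (SD, n = 3), and the groups did not overlap. Against the subunits of the complex, the result depended on the subunit. Bckdk over Dbt was 0.59, 0.55 and 0.51 in the control mice and 0.37, 0.42 and 0.22 in the cachectic mice, and Bckdk over Bckdha was 1.06, 1.10 and 0.86 against 0.61, 0.70 and 0.56, both without overlap. Bckdk over Bckdhb was 0.59, 0.51 and 0.50 in the control mice and 0.44, 0.64 and 0.14 in the cachectic mice, where cachexia 2 lay above every control mouse and the groups overlapped. The ratios were chosen after the values had been seen and carry no test. With 3 mice against 3, the smallest two-sided p of an exact permutation test is 0.1.

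**Figure D2:**
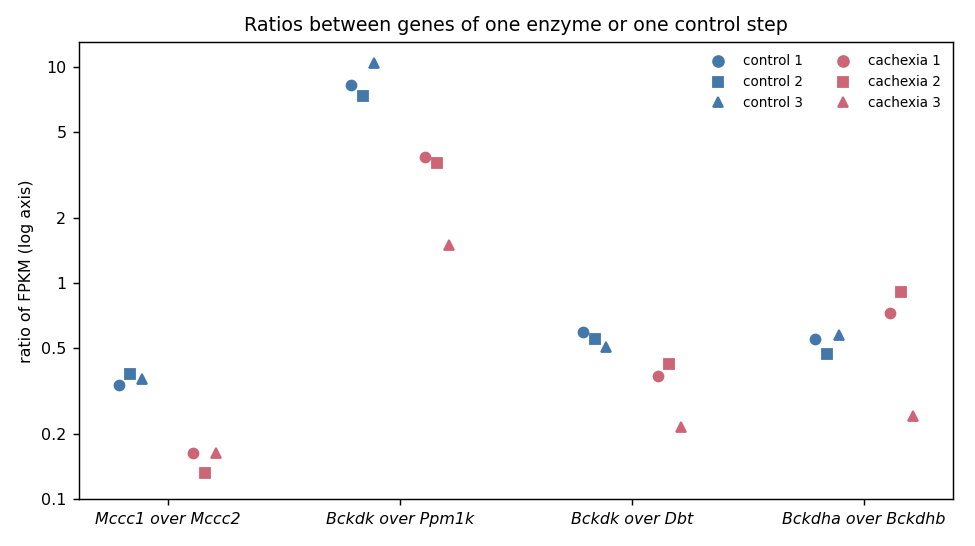
Ratio of deposited FPKM values between genes that act in 1 enzyme or at 1 control step, in each mouse, on a log axis. Mccc1 over Mccc2, Bckdk over Ppm1k and Bckdk over Dbt are lower in all 3 cachectic mice than in any control mouse, while Bckdha over Bckdhb overlaps and scatters from 0.24 to 0.91 in the cachectic mice.

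In the leucine branch, Ivd encodes isovaleryl-CoA dehydrogenase, which follows the BCKDH step. Ivd is at chr2:118861954-118882909 on the plus strand and was at 265, 398 and 353 CPM in the control mice and 445, 357 and 342 CPM in the cachectic mice. The groups overlapped, with a log2 fold change of 0.17 (SE 0.20, adjusted p = 0.591).

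The next enzyme, 3-methylcrotonyl-CoA carboxylase, is built from Mccc1, which carries biotin, and Mccc2. Mccc1, at chr3:35959312-36000678 on the minus strand, was at 136, 186 and 170 CPM in the control mice and 101, 64.7 and 74.3 CPM in the cachectic mice. All cachectic mice were lower than all control mice. The mean fell from 164 ± 25.2 to 80.0 ± 18.7 CPM (SD, n = 3), at a log2 fold change of -1.04 (SE 0.20, 95% interval -1.50 to -0.57) and an adjusted p of 0.0139. The adjusted p was 0.0534 without control 2 and 0.0611 without control 3, with log2 fold changes of -0.94 and -1.01, so the call was lost without either of these mice.

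Mccc2, at chr13:99948530-100015639 on the minus strand, did not pass the test. It was at 103, 126 and 121 CPM in the control mice and 157, 125 and 117 CPM in the cachectic mice, with a log2 fold change of 0.19 (SE 0.16, 95% interval -0.18 to 0.56, adjusted p = 0.437). Its highest value was in cachexia 1, and the other cachectic mice lay within the control range. Mccc1 over Mccc2 in FPKM was 0.34, 0.38 and 0.36 in the control mice and 0.16, 0.13 and 0.16 in the cachectic mice. The ratio was even within each group, with means of 0.36 ± 0.0199 and 0.15 ± 0.0178 (SD, n = 3), and did not overlap between groups.

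Several other genes lie over Mccc1. Its exons share 198 bases with the antisense gene Mccc1os and 94 with Gm15952, which had at most 54 and 18 counts in a mouse, and 321 with the pseudogene B230207O21Rik, which had 0 counts in every mouse. The lowest count of Mccc1 was 1054. Its deposited gene length of 10952 bases, against 2802 for Mccc2, covers the exons of 8 annotated transcripts, and it sets the level of the Mccc1 to Mccc2 ratio but not how the ratio differed between mice.

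Among the other genes around this step, Auh, the hydratase that follows the carboxylase, had a log2 fold change of 0.17 (SE 0.17, adjusted p = 0.517). Hlcs and Btd attach and recycle the biotin that Mccc1 carries, and their log2 fold changes were -0.34 (SE 0.17, adjusted p = 0.186) and -0.07 (SE 0.15, adjusted p = 0.774).

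In the isoleucine and valine branches, Acadsb encodes the short/branched-chain acyl-CoA dehydrogenase of isoleucine breakdown. It is at chr7:131410601-131448944 on the plus strand and was at 256, 352 and 353 CPM in the control mice and 455, 379 and 419 CPM in the cachectic mice. Each cachectic mouse was above each control mouse, but the difference did not pass the test, at a log2 fold change of 0.38 (SE 0.18, 95% interval -0.04 to 0.80) and an adjusted p of 0.178.

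Hibch encodes the hydrolase that frees 3-hydroxyisobutyrate from its CoA ester in valine breakdown. It is at chr1:52844929-52920986 on the plus strand, and its level was 94.4, 130 and 137 CPM in the control mice and 254, 203 and 270 CPM in the cachectic mice. The lowest cachectic mouse was well above the highest control mouse. The mean rose from 120 ± 22.7 to 242 ± 35.1 CPM (SD, n = 3), a 2.01-fold difference, with a log2 fold change of 1.01 (SE 0.19, 95% interval 0.57 to 1.45) and an adjusted p of 0.0126. The call held in all 18 other settings tried, with log2 fold changes from 0.86 to 1.13. None of the exon bases of Hibch is shared with another gene.

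The valine enzymes around Hibch did not pass edgeR's test in its main setting. By DESeq2, Hibadh (adjusted p = 0.0493) and Aldh6a1 (adjusted p = 0.00441) passed. Both also passed edgeR's test on library totals alone, at adjusted p-values of 0.0438 and 0.0293. Aldh6a1 passed it as well relative to mitochondrial genes (adjusted p = 0.0321) and without cachexia 3 (adjusted p = 0.0376). Out of the 18 other settings, Hibadh passed in 2 and Aldh6a1 in 4. Hibadh, which oxidizes 3-hydroxyisobutyrate, was at 188, 278 and 269 CPM in the control mice and 388, 319 and 350 CPM in the cachectic mice, with no overlap and a log2 fold change of 0.52 (SE 0.19, adjusted p = 0.0954). Aldh6a1, the following dehydrogenase, had no overlap either, at a log2 fold change of 0.84 (SE 0.25, adjusted p = 0.0519), and shares 1078 exon bases with Bbof1 on the opposite strand. Acad8, which acts on the valine intermediate as Acadsb does on that of isoleucine, had a log2 fold change of 0.14 (SE 0.16, adjusted p = 0.571), and Echs1, the hydratase before Hibch, one of 0.15 (SE 0.18, adjusted p = 0.612).

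Hsd17b10, which oxidizes the hydroxyacyl-CoA intermediate of isoleucine, rose from 101 ± 12.5 to 249 ± 52.1 CPM (SD, n = 3), at a log2 fold change of 1.30 (SE 0.19) and an adjusted p of 0.00542. Acat1, the thiolase that ends the isoleucine branch, was at -0.10 (SE 0.19, adjusted p = 0.740).

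Over all 25 other genes of the pathway, 3 were higher, Ppm1k and Hsd17b10 among them, 0 were lower and 22 did not pass edgeR's test, against 9.0% of all tested genes higher and 8.63% lower. At an unadjusted p under 0.05, 7 were higher and 1, Bcat1, was lower, against 17.4% and 17.0% of all tested genes. DESeq2 called 6 higher and 0 lower, against 9.56% and 10% of the genes it tested, and limma-voom called 0 lower, against 8.69%. DESeq2 gave no adjusted p for Bcat1, so its count of lower genes does not cover Bcat1. The 25 log2 fold changes were 13 positive and 12 negative, with a median of 0.14, against the median of 0.41 over the 10 genes of the pathway listed first. The propionyl-CoA steps, to which isoleucine and valine both lead, gave no call among 6 genes, and their values ran from -0.36 (SE 0.22) for Pcca to 0.56 (SE 0.18, adjusted p = 0.0648) for Mmaa. Among the regulators, Klf15, a transcription factor known to induce this pathway, had a log2 fold change of 0.60 (SE 0.19, adjusted p = 0.0652), while Pparg, the master factor of adipocyte differentiation, was at -0.28 (SE 0.23, adjusted p = 0.425).

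**Figure D3:**
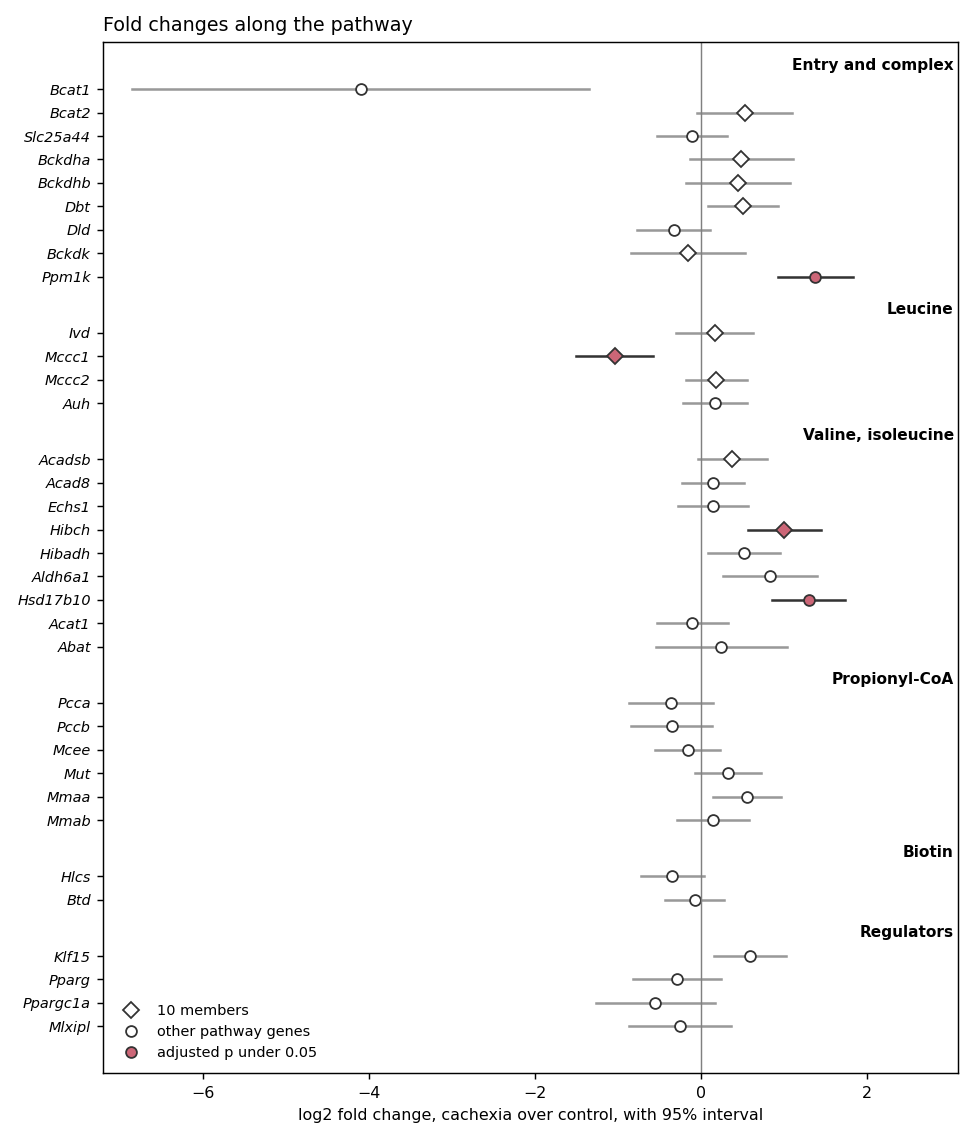
Log2 fold change of cachexia over control with its 95% interval for the 10 genes (diamonds) and other genes of the pathway (circles), grouped by step. Filled symbols have an adjusted p under 0.05: Ppm1k, Hibch and Hsd17b10 to the right of 0 and Mccc1 to the left, and the interval of Bcat1 is the widest.

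Levels between genes were compared in deposited FPKM. In control mice Ivd (60.8 ± 12.0) and Bcat2 (59.5 ± 3.95) stood first, followed by Bckdhb (44.3 ± 9.41), Acadsb (44.1 ± 7.56), Dbt (42.7 ± 8.14) and Mccc2 (41.0 ± 4.09), and then by Bckdha (23.5 ± 4.64), Bckdk (23.3 ± 3.37), Hibch (19.6 ± 3.67) and Mccc1 (14.8 ± 2.24; all SD, n = 3). Neighbours in that order overlapped between mice, except at Bckdhb and Bckdha. All 3 control mice had more Bcat2 than any had Bckdhb, and more Mccc2 than any had Bckdha. The FPKM of Bckdha and its ratios carry the limit given above for the bases shared with B3gnt8. Even Mccc1, the lowest in FPKM, was above 79.7% of the tested genes. The FPKM order depends on the deposited gene lengths, which ran from 1805 bases for Bckdhb to 10952 for Mccc1. In CPM, which is not divided by length, the control mean of Mccc1 was 164. It was below those of Ivd (339), Acadsb (320) and Bcat2 (235) and above those of all other members, among them Dbt (145) and Mccc2 (116). In cachectic mice Bcat2 (85.1 ± 29.2 FPKM) came first, Hibch moved from ninth to seventh place (39.1 ± 5.69 FPKM), and Mccc1 stayed last at 7.14 ± 1.69 FPKM. The only neighbours in the cachectic order that did not overlap were Bckdk and Mccc1.

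**Figure D4:**
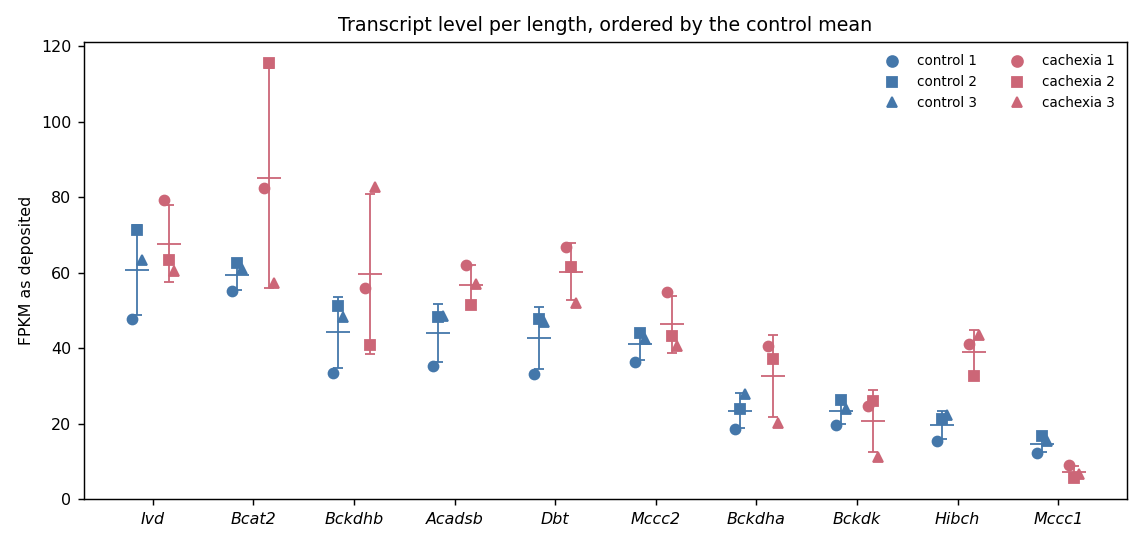
Deposited FPKM of the 10 genes in each mouse, ordered by the control mean, with group means and SD (n = 3). Bcat2 and Bckdhb have the widest spread among cachectic mice. Mccc1, which has the longest deposited gene length (10952 bases), is lowest in FPKM in both groups at 14.8 and 7.14.

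The 10 genes also varied from mouse to mouse within groups. Their summed level was 1355, 1840 and 1765 CPM in the control mice and 2244, 2049 and 1864 CPM in the cachectic mice, so control 1 was the low mouse. Control 1 had the lowest value of the control mice in each of the 10 genes, and without it their median log2 fold change was 0.26. Averaged over the 10 genes, log2 CPM centred on the 6 mice was -0.39, 0.04 and 0.00 in the control mice and 0.31, 0.11 and -0.06 in the cachectic mice. Cachexia 3 was thus no higher than control 2 and 3 in this average, and it held the lowest Bcat2, Bckdha, Dbt, Bckdk, Ivd and Mccc2 of the cachectic mice beside the highest Bckdhb and Hibch. The genes outside all lists whose profile over the 6 mice was closest to this average were Letmd1, Ptprg and Stat5b, with root mean square differences of 0.04, 0.05 and 0.06 on the log2 scale among 9643 candidates, and none of the 3 passed the test.

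Transport and amino group handling were measured through 2 further lists. Slc43a1, a transporter of large neutral amino acids including leucine, was at 19.3, 42.0 and 35.4 CPM in the control mice and 148, 195 and 208 CPM in the cachectic mice. It rose in all 3 cachectic mice by more than the control spread, at a log2 fold change of 2.51 (SE 0.29) and an adjusted p of 0.00278. Slc3a2, the heavy chain shared by several amino acid exchangers, rose by a log2 fold change of 0.77 (SE 0.17, adjusted p = 0.0229), a call lost in 5 of the 18 other settings. Its adjusted p was 0.0925 without control 2, 0.0957 without control 3, 0.167 relative to adipocyte markers, 0.0743 relative to mitochondrial genes and 0.0535 with the replicate number as a block. Its partner Slc7a5 was at 40.5 CPM in control 1 and between 6.01 and 10.6 CPM in the other 5 mice, at a log2 fold change of -1.26 (SE 0.59, adjusted p = 0.177). Of the 5 transport genes, 2 were higher and 3 did not pass, against 9.0% of all tested genes higher and 8.63% lower. Slc25a44, which brings branched-chain amino acids into mitochondria, was at -0.10 (SE 0.18, adjusted p = 0.738).

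Glul, the glutamine synthetase, rose 2.17-fold (log2 fold change 1.12, SE 0.24, adjusted p = 0.0204), with adjusted p-values of 0.0830 without control 2, 0.0923 without control 3 and 0.0645 with the replicate number as a block, where the call was lost. The other 5 genes of the glutamate list did not pass. Among them, Gpt was at 145, 166 and 172 CPM in the control mice and 81.9, 116 and 10.3 CPM in the cachectic mice, with cachexia 3 the lowest, at a log2 fold change of -1.21 (SE 0.67, adjusted p = 0.241). In the sister complexes of BCKDH, which oxidize pyruvate and 2-oxoglutarate, 1 of 6 genes passed. For this list and the glutamate list, the share over all tested genes was 17.6%. Pdhb, the counterpart of Bckdhb in the pyruvate dehydrogenase, fell at a log2 fold change of -1.13 (SE 0.29, adjusted p = 0.0321), and the adjusted p lay between 0.0523 and 0.0994 when any mouse other than control 1 was left out. Bckdhb itself had a log2 fold change of 0.45, and the difference between these genes was not tested.

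The total count per library ran from 14928766 to 18855546, and the member genes had 598 to 7801 counts each in a mouse. Adipocyte markers were abundant in all 6 libraries. Their summed level was 27568.5 to 35544 CPM in control and 30170 to 46955 CPM in cachectic mice. Of the 10, Cidec and Pnpla2 passed edgeR's test, both higher, and 0 were lower. At an unadjusted p under 0.05, 1 was lower, Plin1 (log2 fold change -1.44, SE 0.43, adjusted p = 0.0570). The 10 log2 fold changes were 5 positive and 5 negative. For this list and those that follow, the shares over all tested genes were 9.0% higher and 8.63% lower. At an unadjusted p under 0.05 they were 17.4% and 17.0%. Of the 15 genes chosen to follow mitochondrial content, 0 passed edgeR's test, 1 in each direction had an unadjusted p under 0.05, and their median log2 fold change was -0.05. Markers of other cells moved with the groups. Neutrophil markers were higher for 8 of 9 tested (summed level 32.2 to 49.2 CPM in control and 254.5 to 755 CPM in cachectic mice), erythroid markers for 6 of 6 (252.5 to 451 and 1334 to 2856 CPM), and endothelial markers for 5 of 10 (1660 to 1760 and 2544 to 3690 CPM). Progenitor markers were lower for 4 and higher for 1 of 10 (5447 to 6240 and 2550 to 3492 CPM). Lymphocyte markers were low in both groups (12.5 to 22.9 and 6.03 to 13.7 CPM), with 1 of 9 tested lower, 5 lower at an unadjusted p under 0.05, 0 higher and a median log2 fold change of -1.16. Of 4 skeletal muscle markers tested, Myl1 was lower (log2 fold change -1.94, adjusted p = 0.0236) and 0 were higher, and of 8 mesothelial markers 0 passed edgeR's test, with 1 lower at an unadjusted p under 0.05. Macrophage markers were split, with 2 of 10 higher and 1 lower, and of the 8 epididymis markers 0 passed the filter on low counts. The part of these cells in the values of the 10 genes was not tested. Relative to the adipocyte markers in place of library size, the log2 fold change was 0.99 for Hibch (adjusted p = 0.0376) and -1.08 for Mccc1 (adjusted p = 0.0216), and relative to the 15 mitochondrial genes the adjusted p was 0.0189 for Hibch and 0.0143 for Mccc1, in the same directions.

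**Figure D5:**
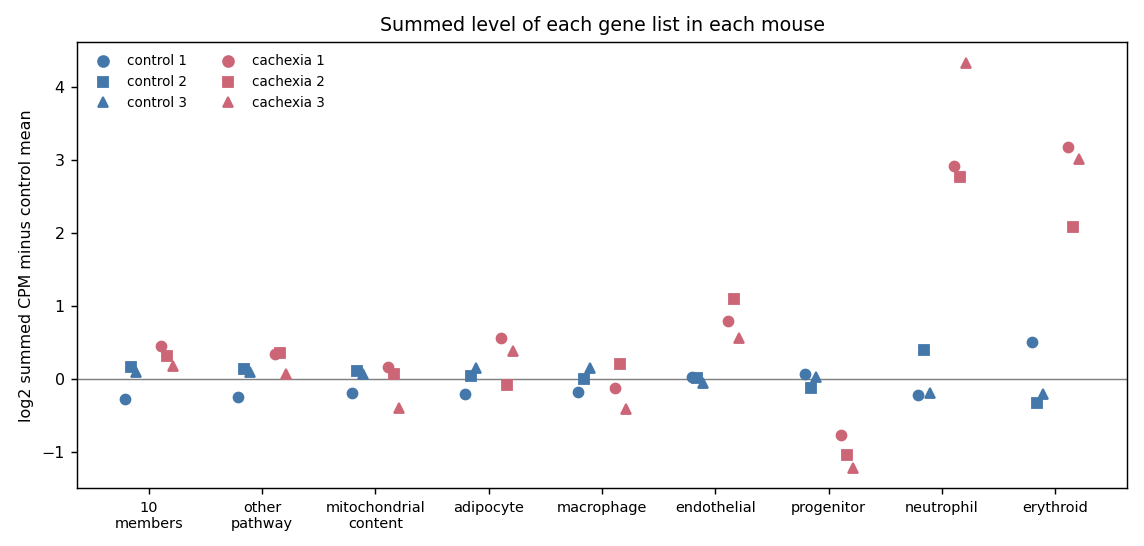
Summed CPM of each gene list in each mouse, as log2 relative to the control mean (line at 0). The 10 genes and the other pathway genes differ by less than 0.5 from the line in every mouse, while the neutrophil and erythroid lists lie over 2 above it in all 3 cachectic mice.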

How the data were processed

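RNA-seq libraries of eWAT from 3 cachectic and 3 control mice were grouped by their labels. The authors aligned clean reads with Hisat2, counted reads per gene with featureCounts 1.5.0-p3 and deposited raw counts, without normalization. They also deposited FPKM, computed from count and gene length. Strand use in counting is not given in the sources used here. The submitters' notes name mm9, but the coordinates in the table are those of GRCm38 (98.3% of matched genes equal GENCODE M21, all 10 members among them). The deposited table of the authors' own fold changes and p-values by DESeq2 1.16.1 was not used, with its 6 per-sample columns and 2 columns of means.

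The counts went through edgeR 4.0.16 in R 4.3.3, with its filterByExpr filter, TMM factors and quasi-likelihood test. No covariate was used. P-values were adjusted over 16003 genes by the Benjamini-Hochberg method, and a call needs an adjusted p under 0.05. The SE is the log2 fold change divided by the square root of F. Depth was 14928766 to 18855546 counts per mouse, and the common biological coefficient of variation was 0.264. P-values set the group difference against the spread between these 3 mice a group, with each gene's variance moderated across genes. The script was tested on simulated data. All 10 members are named, and genes of the other lists by list. Some genes of those lists are not reported here, though counts over a list include them. The members and lists were chosen with earlier results of these data known. Likeness was ranked on log2(CPM + 0.5) over genes with a mean of at least 10 CPM. Alternatives were other scalings and filters, a block for the replicate number, each mouse left out, limma-voom, DESeq2 1.42.0, and limma 3.58.1 on log2 of FPKM plus 1 or 0.1. The updated (non-legacy) form of edgeR's test was added after seeing the data.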

Additional observations from a re-analysis of the deposited data

How the results depend on the processing

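Across the 18 alternatives, Hibch had an adjusted p under 0.05 in all 18 (2.7e-05 to 0.0461) and Mccc1 in 16, with log2 fold changes of -1.24 to -0.90, the exceptions being those without control 2 or control 3. Bckdk ran from -0.35 to 0.14 with a mouse left out and reversed, to 0.14, without cachexia 3. All genes called numbered 2821 in the main test, 1706 relative to adipocyte markers (682 higher and 1024 lower, 40.0% higher), 1802 relative to mitochondrial genes and 828 (without control 3) to 2339 with a mouse left out. Members called higher numbered 2 on library totals alone, where Dbt passed (adjusted p = 0.0438), and 1 to 3 with a mouse left out, the 3 being Hibch, Bcat2 and Bckdha without cachexia 3. Members called lower numbered 0 to 1. Over all tested genes, 1477 of 16003 were higher on library totals and 1770 of 18515 by DESeq2. With a mouse left out, calls over all genes were fewest without control 3 (382 higher and 446 lower of 16502). They were most without cachexia 3 (1197 higher and 1142 lower of 16502). Lower genes numbered 1379 of 29764 with no filter and 968 of 16003 with the replicate block. Of the 25 other pathway genes, 5 were higher on library totals, 6 by DESeq2 and 3 to 4 with a mouse left out, and 1, Bcat1, was lower relative to adipocyte markers, with no filter, with the replicate block and without control 2, so that leaving out a mouse gave 0 to 1. The members' median ran from 0.26 to 0.48 with a mouse left out. The cause of these changes was not tested. Mice with the same number did not deviate together (correlations of -0.0031, -0.0113 and 0.0085). These values gave no sign that the numbers pair the mice, but they cannot exclude a pairing. The replicate block gave 1881 calls, and it left Hibch (adjusted p = 0.0300) and Mccc1 (adjusted p = 0.0411) called. With 3 mice a group, differences of the size seen for Bcat2, Bckdha and Bckdhb could not be separated from their spread.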
